A study of Neurospora crassa with 16 samples.

Results

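NCU09903, NCU09904, NCU09906, NCU09909 and NCU09910 are 5 protein-coding genes at the left end of chromosome I, the largest of the 7 chromosomes of the filamentous fungus Neurospora crassa. They lie between positions 9177 and 52949 of the NC12 assembly, a stretch of 43773 bp, and are 5 of the 9730 genes counted. They were chosen by their place in the authors' deposited table of genes lower in Δlsd1, so their fall relative to wild type is given below as a description with no test. The reference table carries no symbol for any of them, and the files annotate no function, so none is given here.

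The series addresses heterochromatin and gene expression in strains that lack the histone demethylase LSD1. Expression was measured in 2 RNA-seq libraries of Δlsd1 strain N5555, a single strain of mating type a in which the hph marker replaces lsd1. The reference is wild-type strain N3752 of mating type A, whose 2 libraries belong to another series and enter here only as the mean in the authors' deposited tables. The Δlsd1 RNA came from conidia, which are asexual spores, that had germinated in shaken Vogel's medium (1.5% sucrose, 32 °C, 16 h). The labels do not say whether the Δlsd1 replicates came from separate cultures, so the spread between them may be technical. The bisulfite and chromatin immunoprecipitation samples were not analysed here, so no methylation or histone signal stands beside the RNA values.

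LSD1 belongs to the amine oxidases that remove methyl groups from lysines of histone tails. Neurospora keeps constitutive heterochromatin, marked by histone H3 lysine 9 trimethylation and DNA methylation, over AT-rich remains of repeats, and the DNA beside its telomeres often carries the Polycomb mark on histone H3 lysine 27. Genes close to chromosome ends therefore sit near both kinds of silent chromatin. This is background and not a result of these libraries.

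The libraries held 7017726 reads on genes in replicate 1 and 6797672 in replicate 2. NCU09120, taken as the targeted gene lsd1 from knowledge of the gene, had 41 and 65 reads, and the authors' deposited table gave it a normalised mean of 88.7 in Δlsd1 and 675 in wild type. Reads on this gene were thus fewer than in wild type but not absent. The counts do not show where in the gene they lie, and the replaced part of it is not stated in the labels. Across the 7319 genes with at least 10 reads in each library, the spread between the libraries was a biological coefficient of variation of 15.3%. The strains compared are of opposite mating type and were sequenced for different series, and these differences cannot be told apart from the loss of lsd1. The mating type locus lies on the same chromosome, with matA-1 at 1860692 to 1862194.

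All 5 genes stood at a lower level in Δlsd1 than the wild-type mean, in each library taken alone. The choice of genes fixed this in advance. Where the mean of 2 libraries is at least 2-fold below wild type, neither library can reach the wild-type mean. Of 9730 counted genes, 755 or 7.76% were called lower in the authors' deposited tables, and 6.57% were called lower with an adjusted p under 0.05. All 5 genes of the run meet both rules, but these calls are how they were chosen, and nothing is read from the count. RNA was taken from whole cultures, so fewer cells that express a gene and less RNA per cell cannot be told apart. In the authors' deposited table the median log2 fold change of the 5 genes was -1.54, where the median over all 755 lower genes was -1.41. One by one, the share of the lower table with a larger decrease ran from 19.9% for NCU09909 to 98.8% for NCU09910. Normalised read counts below are the deposited count plus 1, divided by the authors' size factor, which recovers the Δlsd1 means of their tables.

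NCU09906 (34981 to 39245) was the most abundant member and had the lowest adjusted p of the 5 genes. It had 322 reads in replicate 1 and 642 in replicate 2, or 505 and 1089 normalised reads, against a wild-type mean of 2676 in the authors' deposited table. Both Δlsd1 libraries lay well below that mean, and replicate 2 lay closer to it. In the authors' deposited table its level was 29.8% of wild type, -1.75 on the log2 scale (adjusted p = 1.94e-08). The non-coding RNA gene NCU14001 (34691 to 35418), which was not counted, shares 438 bp or 10.3% of NCU09906, and although the library kit keeps strand, the labels do not say whether counting used it, so reads of both genes cannot be told apart there.

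NCU09904 (17441 to 19615), the shortest member at 2175 bp, followed in abundance. It had 136 and 238 reads, or 214 and 405 normalised reads in Δlsd1, against a wild-type mean of 827 in the authors' deposited table. Replicate 2 again lay closer to wild type. Its level was 37.4% of wild type in the authors' deposited table, -1.42 on the log2 scale (adjusted p = 1.40e-05).

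NCU09903 (9177 to 13334) is the member nearest the chromosome end. It had 24 reads in replicate 1 and 67 in replicate 2, or 39.1 and 115 normalised reads, against a wild-type mean of 224 in the authors' deposited table. The Δlsd1 libraries were farther apart at this gene than at any other member. That put it at 34.4% of wild type in the authors' deposited table, -1.54 on the log2 scale, with the highest adjusted p of the 5 genes (adjusted p = 0.0200).

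NCU09909 (45332 to 48154) was the least abundant member and showed the largest decrease of the 5 genes by the mean of both libraries and with replicate 2 alone. With replicate 1 alone it stood at -1.75 on the log2 scale, a smaller decrease than at NCU09903, NCU09906 and NCU09904. It had 15 and 11 reads, or 25.0 and 20.3 normalised reads in Δlsd1, against a wild-type mean of 84.0 in the authors' deposited table. The libraries were close to each other and both far below that mean. In the authors' deposited table this was a decrease of 3.71-fold, -1.89 on the log2 scale (adjusted p = 0.000639), which rests on few reads.

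NCU09910 (49237 to 52949) closes the run and lies just inside the 2-fold limit of the tables. It had 45 and 50 reads, or 71.9 and 86.4 normalised reads in Δlsd1, against a wild-type mean of 159 in the authors' deposited table. Its Δlsd1 values were close together, at about the same distance below wild type. In the authors' deposited table its level was 49.8% of wild type, -1.01 on the log2 scale (adjusted p = 0.0119), and 98.8% of the lower genes there had a larger decrease. Genes just outside that limit are not in the tables, so no value can be set beside it.

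**Figure D1:**
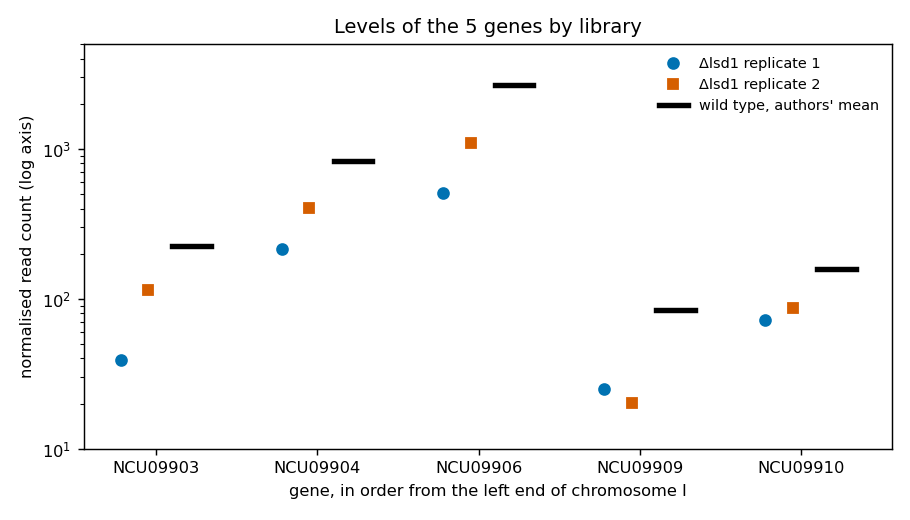
Normalised read count (log axis) of the 5 genes in Δlsd1 replicate 1 (circles) and replicate 2 (squares), and the authors' deposited mean for wild type (bars, no error given). Every Δlsd1 point lies below its bar, which the choice of genes fixed in advance. The points run from 20.3 for NCU09909 to 1089 for NCU09906, and the circles and squares stand apart at the leftmost 3 genes.

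The size of the fall depended on which Δlsd1 library was used. Replicate 1 alone put all 5 genes at least 2-fold below wild type as given in the authors' deposited table, with log2 values between -2.52 for NCU09903 and -1.14 for NCU09910. Replicate 2 alone did so for 3 of 5, with log2 values of -1.30 for NCU09906, -1.03 for NCU09904 and -2.05 for NCU09909. NCU09903 stood at -0.96 and NCU09910 at -0.88 with that library, short of the limit. Among all 755 genes of the authors' lower table, 93.4% were at least 2-fold lower with replicate 1 alone and 80.5% with replicate 2 alone. The median of the 5 genes was -1.95 with replicate 1 and -1.03 with replicate 2.

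The leftmost 3 members were higher in replicate 2 than in replicate 1, while the other 2 did not pass the test. This comparison sets the Δlsd1 libraries against each other, a difference by which the genes were not chosen. Each gene's reads were tested for their split between the libraries by an exact two-sided binomial test after TMM scaling in edgeR, which matches libraries on the genes that differ least, with Benjamini-Hochberg adjustment over 7319 genes with at least 10 reads in each library. It covers counting error only and compares 2 libraries, not conditions. Of the 7319 genes, 27.1% passed in either direction and 14.0% were higher in replicate 2.

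At NCU09903 replicate 2 exceeded replicate 1 by 1.60 on the log2 scale (95% exact interval 0.91 to 2.34, adjusted p = 8.29e-06). At NCU09906 the log2 difference was 1.11 (0.92 to 1.31, exact test, adjusted p = 1.09e-29), and at NCU09904 it was 0.93 (0.62 to 1.24, exact test, adjusted p = 1.91e-08). Differences of at least these sizes in either direction were found at 0.396%, 1.63% and 3.13% of the tested genes, in the order just given. NCU09910 differed by 0.27 (-0.34 to 0.89, exact test, adjusted p = 0.627). NCU09909 differed by -0.33 with a wide interval of -1.60 to 0.89 (exact test, adjusted p = 0.842). The intervals of NCU09903 and NCU09906 do not overlap those of NCU09909 and NCU09910, whereas that of NCU09904 overlaps those of all other members. A p that misses the threshold does not show that NCU09909 and NCU09910 were equal in the libraries, and the interval of NCU09909 overlaps that of NCU09904.

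No neighbour with reads passed this test. All 5 other genes of the first 60 kb with reads were tested and 0 passed the exact binomial test, adjusted or at an unadjusted p under 0.05. Their log2 differences ran between -0.33 and 0.17. With 27.1% of all tested genes passing, 5 genes are too few to tell 0 from that share. The interval of NCU09913 (-1.60 to 0.89), with 15 and 11 reads, overlaps that of NCU09904. The remaining reads of NCU09120, the targeted gene, also split toward replicate 2, with a log2 difference of 0.78 (0.20 to 1.38, exact test, adjusted p = 0.0264), and the part of this in the split of the leftmost members was not tested. Among all genes of the authors' lower table, 627 could be tested and 184 passed, with 141 toward replicate 2 and 43 toward replicate 1. The direction found at the leftmost members was thus also the commoner one among lower genes.

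**Figure D2:**
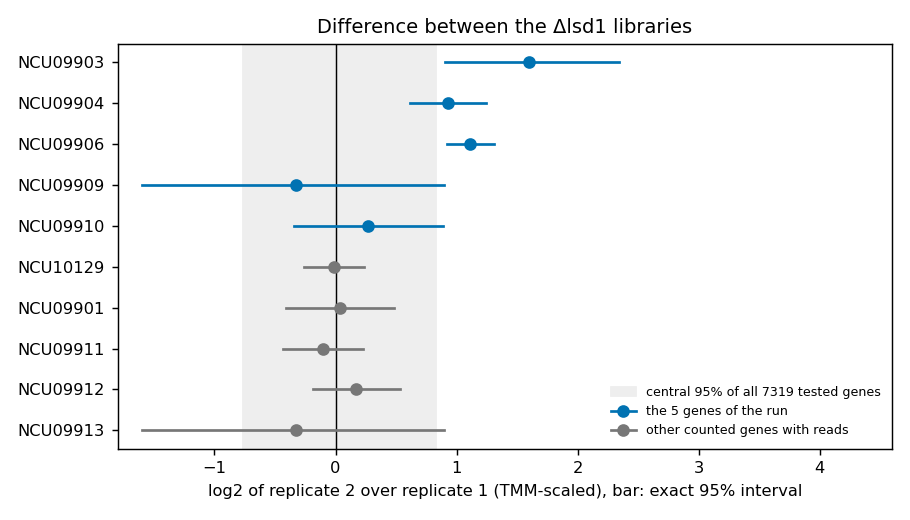
Log2 of replicate 2 over replicate 1 for the 10 genes with reads that start in the first 60 kb of chromosome I, with exact 95% intervals for counting error as bars, and a grey band for the central 95% of all tested genes (-0.76 to 0.83). NCU09903, NCU09904 and NCU09906 lie to the right of the band, and the other 7 points lie inside it.

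Per length, the members were spread from low to moderate levels in Δlsd1. CPM, the gene's reads scaled to the library's total on genes, divided by the annotated gene span in kb, averaged 16.5 ± 8.05 for NCU09906 and 12.5 ± 5.08 for NCU09904 (SD, n = 2 each). They averaged 1.85 ± 0.180 for NCU09910, 1.60 ± 1.09 for NCU09903 and 0.665 ± 0.130 for NCU09909 (SD, n = 2 each). Within each library NCU09906 lay above NCU09904 (10.8 and 8.91 in replicate 1, 22.1 and 16.1 in replicate 2), and NCU09909 lay below all other members. NCU09910 and NCU09903 changed places between the libraries (1.73 and 0.822 in replicate 1, 1.98 and 2.37 in replicate 2), so that pair is not ordered. Of all counted genes, 71.8% had a lower mean per kb than NCU09906 and 22.4% had a lower one than NCU09909. The spans include any introns, which were not examined, so these levels may be lower than those per kb of mature transcript.

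The run is not made of adjacent genes only. Its 43773 bp hold 8 counted genes, and the 3 that are not members, NCU11134 (15930 to 16647), NCU09907 (40950 to 42632) and NCU09908 (43709 to 44551), had 0 reads in both Δlsd1 libraries. A count of 0 allows a level of up to 0.217 CPM, taken as 3 reads over both libraries. They are in neither of the authors' deposited tables, and no wild-type value of theirs was used here. The run is thus unbroken only among genes with reads.

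On both sides the run ended at genes that had reads and were in neither of the authors' deposited tables. Towards the chromosome end, NCU10129 (1151 to 2878) had 290 and 265 reads and NCU09901 (3178 to 6443) had 90 and 85. On the other side, NCU09911 (53114 to 54518) had 169 and 145 reads, NCU09912 (54882 to 57945) had 132 and 137, and NCU09913 (59146 to 61150) had 15 and 11. NCU09911 starts only 164 bp after the end of NCU09910. Absence from the tables does not show that these genes kept their wild-type level, since the tables hold only genes past 2-fold with an unadjusted p-value of up to 0.0497. The next gene in the authors' lower table was NCU08056 (122928 to 128314), 69978 bp and 13 counted genes farther on, at -1.77 on the log2 scale in that table (adjusted p = 0.0112).

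A long stretch without counted genes divides the members. Between NCU09904 and NCU09906 lie 15365 bp, and only 1.40% of 9722 gaps between neighbouring counted genes on the 7 chromosomes are as long, against a median gap of 629 bp. A longer gap of 28373 bp follows NCU09914 (62094 to 62950), the first counted gene to start beyond 60 kb. The leftmost 3 members, which differed between the libraries, thus comprise both members to the left of the 15365 bp gap and the first member to its right.

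None of the 5 genes overlapped a deposited region. Of all counted genes 2.43% (236 of 9729) did, as did 4.50% (34 of 755) of the authors' lower table, so a count of 0 among 5 is near both shares. The authors' region list holds 250 regions, 61 of them on chromosome I, without a score, and the labels do not state how they were called. The region nearest to all 5 genes was the same one, 3185 bp long at 1381 to 4565, the first of the chromosome. It covered 86.7% of NCU10129 and 42.5% of NCU09901, both in neither table, and ended 4611 bp before NCU09903. The distance grew to 12875 bp for NCU09904, 30415 bp for NCU09906, 40766 bp for NCU09909 and 44671 bp for NCU09910. The next region of the chromosome begins at 385411, so nothing on the list lies under the run or close to its right.

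The median distance of the 5 genes to a region, 30415 bp, lay below that of all genes, 65520 bp, and of all genes in the authors' lower table, 59848 bp. The members share their nearest region, so these are not 5 separate observations. At this end, the 2 genes that the region overlapped were in neither table, although over the whole genome a larger share of the authors' lower table than of all genes overlapped a region, as given above. In the authors' deposited table the decreases followed no order with distance, at log2 values of -1.54, -1.42, -1.75, -1.89 and -1.01 in the order of the genes along the chromosome.

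**Figure D3:**
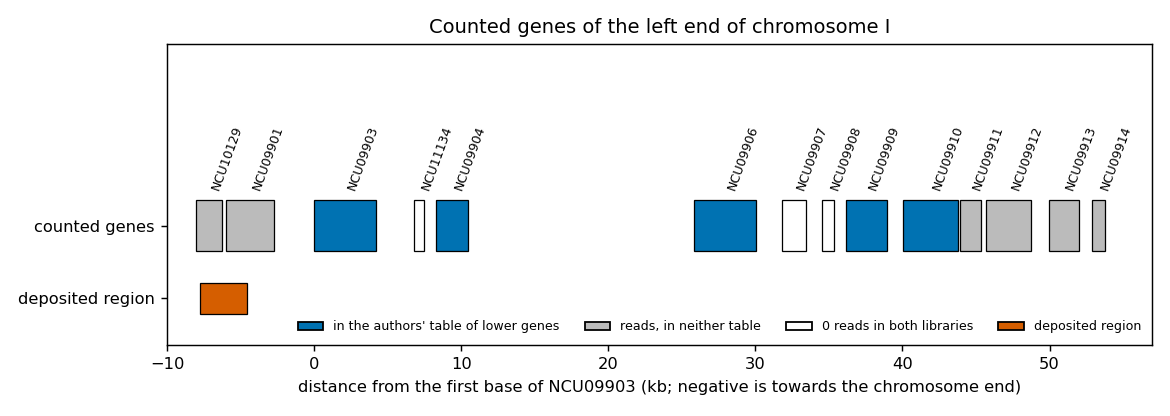
Map of the counted genes at the left end of chromosome I, as distance in kb from the first base of NCU09903, with genes of the authors' lower table in blue, genes with reads in neither table in grey and genes with 0 reads in white. The deposited region (orange) lies over the 2 grey genes at the chromosome end, 4611 bp short of NCU09903.

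Among the 14 chromosome ends, the left end of chromosome I held the most genes called lower. Of 13 counted genes that start within its first 60 kb, 5 were in the authors' lower table and 0 in the higher one. At the other 13 ends, 24 of 221 counted genes within 60 kb were in the authors' lower table, 10.9%, with 0 to 4 at an end and a median of 2. The right end of chromosome I held 2 lower genes of 5, a like share from fewer genes. The left end was put forward because of its calls, so no test was made of its rank.

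**Figure D4:**
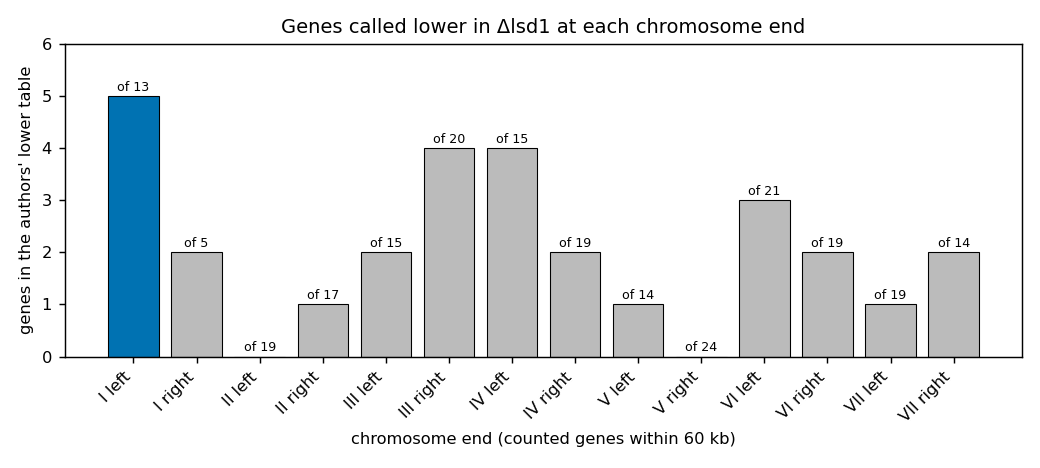
Number of genes in the authors' lower table within 60 kb of each chromosome end, with the number of counted genes there above each bar. The left end of chromosome I (blue) has 5 of 13, and the other ends have 0 to 4.

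The run was also the longest of its kind by one way of counting. It was put forward because of these same calls, so no test was made of its rank and nothing is read from it. Among 8692 genes that had a read in Δlsd1 or a place in the authors' deposited tables, it was the only stretch of 5 neighbouring genes called lower on the 7 chromosomes. Next came 3 stretches of 4 genes, one of them near the left end of chromosome IV (NCU09638 to NCU09641). When genes with 0 reads were kept in the order, no stretch of 5 remained. In that fuller order NCU11134 parts NCU09903 from NCU09904, and NCU09907 and NCU09908 part NCU09906 from NCU09909. The left end of chromosome I then held none of the 15 stretches of 3 or more lower genes. The longest, NCU09355 to NCU09357 on chromosome II and NCU09638 to NCU09641, held 4 each. With replicate 2 alone at the 2-fold limit there was also no stretch of 5. Of 9680 windows of 8 neighbouring counted genes, 6 held 5 or more genes of the authors' lower table. One of these began at NCU09903, another at NCU02920 on the same chromosome, and 4 overlapped on chromosome II, with up to 6 lower genes.

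The genes whose profile was most like the members' mean lay elsewhere in the genome. Likeness was the distance between log2 profiles over 3 points, the 2 Δlsd1 libraries and the deposited mean for wild type, among the other 1055 genes of the tables. The nearest was NCU02066 (chromosome I, 1485051 to 1487679), with 17 and 26 reads, at -1.56 on the log2 scale in the authors' deposited table. It was followed by NCU04047 on chromosome VI, with 22 and 33 reads, and NCU01638 on chromosome II, with 45 and 65 reads. Their distances from the members' mean profile were 0.0185, 0.0418 and 0.0547, less than that of any member itself, the closest of which was NCU09904 at 0.167. These 3 genes were picked from 1055 for that distance, so it describes them and supports nothing about the run.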

How the data were processed

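The members and gene lists were chosen with earlier results of these data known. The deposited count files hold raw read counts per gene; the submitters' processing notes name Bowtie2, DESeq2 and deepTools, without versions, and the labels do not state the build or the counting program. Rows that name no gene stayed out; reads outside genes were 12.3% and 12.7% of all, and reads aligned to several places 3.74% and 3.38%. Per the file headers, the deposited gene tables pair normalised means (a signal) with a fold ratio, the log2 of that ratio, and a p-value before and after adjustment. Solving their Δlsd1 means for 2 size factors gave 0.640 and 0.591, with all 1060 genes recovered within a relative error of 1e-09, so a positive log2 value means higher in Δlsd1. With wild-type counts not used here, no count model across strains was fitted. The tables hold genes past 2-fold with an unadjusted p-value up to 0.0497. The region file gives deposited start and end positions (unit other), without a header, turned into 1-based coordinates. Its first supercontig reaches 9705919, beyond every chromosome but I, whose annotation ends at 9772169.

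Gene positions came from the RefSeq table of NC12, which matched 9729 of 9730 identifiers. Right ends were taken as the last annotated base or the end of the last deposited region, whichever lay farther along the chromosome. The text names all 5 members, the counted genes starting in the first 60 kb, lsd1 and the 3 genes nearest in profile; NCU09914, NCU08056, NCU14001, matA-1 and the first or last genes of other runs were added after their values were seen. Tools were R 4.3.3, edgeR 4.0.16, DESeq2 1.42.0 (size factors only), Python 3.11.15, numpy 2.4.6, pandas 2.3.3, scipy 1.17.1 and matplotlib 3.10.9. The split test was tried on simulated counts that held counting error only, so that trial does not cover the wider spread between the real libraries. Intervals and floors cover counting error only.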

Additional observations from a re-analysis of the deposited data

How the results depend on the processing

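Leaving out 1 library at a time, the number of the 5 genes at least 2-fold below wild type in the authors' deposited table ranged from 3 to 5, and so did the number of such genes in the first 60 kb. Only genes of the authors' lower table were counted with 1 library, so neither number could rise above 5. The median log2 value ranged from -1.95 to -1.03. Its sign could not change, because the members were chosen at least 2-fold below wild type by the mean of both libraries. Stretches of 5 neighbouring lower genes numbered 0 to 1. The lower of each of these counts came without replicate 1, and the median of -1.95 came without replicate 2. In a window of 30 kb the lower genes numbered 2, since the other 3 members start farther in; within 5 kb of a region lay 1 member, NCU09903; and with genes without reads kept in the order, stretches of 5 numbered 0. The stretches and their alternatives were added after the data were seen. An adjusted p under 0.05 in the authors' deposited table, a mean of at least 50, a window of 100 kb, DESeq2 size factors, total counts, no filter on low counts, no added 1, a region within 1 kb and overlap of at least 50% moved no count by over 1.5 times and changed no direction, where each was tried. No paired analysis was possible because only 1 group has counts. Depth limits NCU09909 most, with 15 and 11 reads.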

Other observations

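Beyond the run, NCU08052 (chromosome I, 109911 to 112060) had 1742 and 5759 reads in replicates 1 and 2, a log2 difference of 1.84 (95% exact interval 1.77 to 1.92) that was matched or exceeded by 0.232% of the tested genes. It is in neither of the authors' deposited tables. Its neighbours NCU08053, with 175 and 165 reads, and NCU08054, with 591 and 528 reads, had intervals that include 0. NCU09914, just right of the first 60 kb, had 18 and 4 reads in replicates 1 and 2. Its log2 difference of -2.05 (95% exact interval -4.07 to -0.45) was opposite in sign to that of the leftmost members. It was left out of the test because replicate 2 had under 10 reads.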
